A study of Mus musculus with 4 samples.

Results

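Genes that mark macrophages were compared between right ventricles of adult Ezh2-deficient and wild-type mice. The set held 10 genes chosen by name, C1qa, C1qb, C1qc, Csf1r, Emr1, Cd163, Mrc1, Cd68, Cd14 and Lgals3, each with exactly 1 row among the 29595 gene rows of the deposited table. The series has 4 RNA sequencing libraries, 2 from hearts labelled Ezh2-deficient mutant (mutant 1 and mutant 3, with the numbers of the labels) and 2 from hearts labelled Wildtype (wild type 1 and wild type 2). All 4 animals were adults on a mixed background of C57BL/6. Ezh2 is the enzyme of Polycomb repressive complex 2 that methylates histone H3 to keep genes silent. The labels name neither the allele nor the Cre line or the cells in which Ezh2 was lost, so they do not say whether macrophages were deficient.

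Macrophages live in the heart between the cardiac muscle cells, where they take up debris and dying cells and sense injury. Some are resident cells seeded before birth that renew in place, and others arrive from blood monocytes. Their survival depends on the receptor encoded by Csf1r, and they are the main source of C1q, the recognition molecule that opens the classical complement pathway. Several of the 10 genes are also active elsewhere: Cd14 in monocytes and neutrophils, Mrc1 in lymphatic and some other endothelium, and Lgals3 in activated fibroblasts, monocytes and other cells.

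The libraries held 21707784 and 23853394 reads in the mutants, against 20093783 and 18177642 in the wild types. Mitochondrial transcripts took 40.3% and 47.3% of the reads of the mutants and 34.7% and 41.2% of the reads of the wild types. Y-linked Ddx3y had 754 and 659 reads in the mutants, against 2 and 2 in the wild types, so the groups differed in sex as well as genotype, and no difference given here can be told apart from one of sex. Ezh2 itself had 73 and 70 reads in the mutants, against 77 and 67 in the wild types, a row that does not check the labels because the deleted part is not stated. Tnnt3, the troponin T of fast skeletal muscle and the only such gene examined, stood out in mutant 1, at 1516 and 20 reads in the mutants, against 8 and 5 in the wild types. Per the labels' protocol the libraries were made from polyadenylated RNA and then digested with a duplex-specific nuclease, which thins out abundant species, so levels of different genes are not proportional to their RNA. In a bulk ventricle sample, fewer macrophages and less RNA per macrophage cannot be told apart.

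Levels of 6 of the 10 macrophage genes overlapped between the genotypes, 3 had both mutants higher and 1 had both lower, where 22.3% and 22.4% of all tested rows had both mutants higher or lower. Lgals3 was the member that differed most. By edgeR's quasi-likelihood test 0 of the 10 reached an adjusted p under 0.05, as 0.130% of 16128 tested rows did (0.105% higher and 0.0248% lower in the mutants). At an unadjusted p under 0.05, 2 members were higher (Lgals3 and Cd163) and 0 were lower, against 6.49% and 4.38% of all tested rows. DESeq2 called 1 member, Lgals3, and 1.09% of the rows for which it gave an adjusted p (0.852% higher, 0.243% lower). Limma-voom called 0 members and 0.0868% of rows, and edgeR called 0 members under a filter of 10 reads in every library (0.0405% of rows) or without X, Y, mitochondrial and abundant rows (0.0192% of rows). The median log2 fold change was 0.14 over the 10 members and 0.005 over all tested rows, with 8 members above 0 and 2 below, where 50.5% of all rows were above 0. Scaled by total counts only, 3 members were above 0, C1qb, C1qc, Mrc1, Cd68 and Cd14 turned negative, and the median was -0.13, beside a median of -0.28 over all rows.

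**Figure D1:**
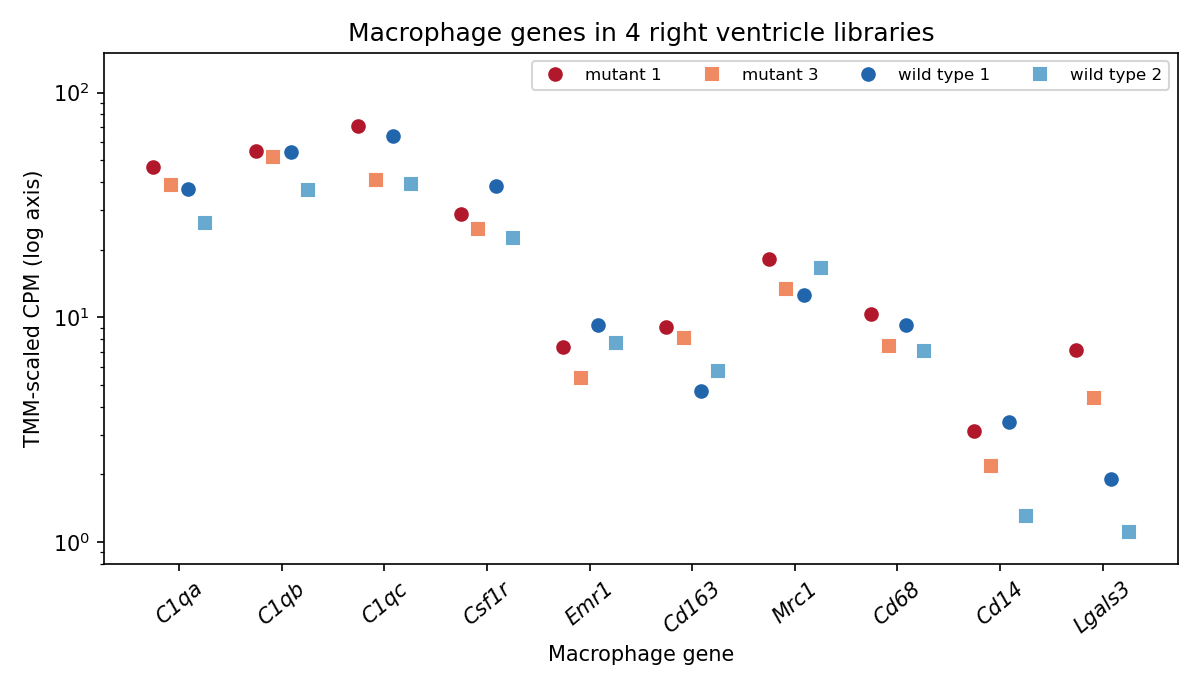
Level of each of the 10 macrophage genes in the 4 libraries, as TMM-scaled CPM on a log axis; each point is 1 library. Lgals3 and Cd163 lie higher in both mutants than in both wild types, and the points of most other genes mix.

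The levels summed over the 10 genes differed more between hearts of one genotype than between the genotypes. TMM-scaled CPM, the read count relative to library size after edgeR's correction for composition, came to 256 and 197 in mutants 1 and 3 and to 236 and 164 in wild types 1 and 2. Mutant 1 and wild type 1 were thus the high library of each group. All 10 members were higher in mutant 1 than in mutant 3, where 49.9% of tested rows were, and 8 were higher in wild type 1 than in wild type 2, where 54.5% of tested rows were. The median log2 ratio of the members was 0.46 between the mutants and 0.54 between the wild types, larger than their median of 0.14 between the groups. The medians of all tested rows were 0.00 and 0.07 for those same pairs of libraries. With 2 hearts a group the smallest two-sided p of an exact permutation test is 0.333, so the tests given come from models fitted over all rows.

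The C1q genes were the most abundant members per base of transcript. They encode the A, B and C chains that assemble into C1q, and they lie side by side on the minus strand of chromosome 4 (136436061 to 136454759, build mm9, as for the other positions of table rows, a span of 18699 bases). C1qa had 1001 and 767 reads in mutants 1 and 3 and 841 and 520 in wild types 1 and 2. Scaled by TMM, that was 46.7 and 38.9 CPM in the mutants, against 37.4 and 26.2 CPM in the wild types. The groups did not overlap, though mutant 3 and wild type 1 nearly met. Without TMM scaling they did overlap: the authors' deposited ratio of mutant 3 over wild type 1 was 0.768. Mean levels of C1qa were 42.8 ± 5.53 CPM in the mutants, against 31.8 ± 7.98 CPM in the wild types (SD, n = 2 each), a log2 fold change of 0.43 ± 0.25 (SE) with an edgeR adjusted p of 0.578.

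C1qb and C1qc were spread more by library than by genotype. C1qb had 54.7 and 51.7 CPM in the mutants, against 54.2 and 36.8 CPM in the wild types, with wild type 2 alone low. Its log2 fold change was 0.22 ± 0.25 (edgeR adjusted p = 0.776). For C1qc the levels were 71.1 and 40.7 CPM in the mutants, against 64.4 and 39.2 CPM in the wild types, and each group held a high and a low heart. The log2 fold change of C1qc was 0.11 ± 0.34 (edgeR adjusted p = 0.930). C1qa and C1qb passed only without wild type 1 (edgeR adjusted p = 0.0136 and 0.0370), a fit that called 12.2% of all rows, while C1qc had a log2 fold change of -0.31 without mutant 1 and of -0.21 without wild type 2.

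C1qc made up a smaller share of the C1q reads in mutant 3 than in the other hearts. It took 41.2% and 31.0% of all C1q reads in mutants 1 and 3 and 41.3% and 38.4% in wild types 1 and 2. The 95% Clopper-Pearson interval of mutant 3 was 29.2% to 32.8%, below the intervals of the other libraries, of which the lowest bound was 36.2%. These intervals, like all others given here, cover counting error only. C1qb was the largest share in mutant 3, at 39.4% (interval 37.5% to 41.3%, overlapping the 34.0% to 38.2% of wild type 2), and C1qc the largest in the other 3 libraries. C1qa took 27.1% and 29.6% of C1q reads in the mutants, against 24.0% and 25.6% in the wild types.

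RefSeq upstream sequence was at hand for 6 of the 10 genes (C1qb, C1qc, Cd163, Mrc1, Cd68 and Lgals3). The stretches shown are those of C1qc, whose share stood apart in mutant 3, of its neighbour C1qb, and of Lgals3 and Cd163, which differed most between genotypes. Each is given 5′ to 3′ on the gene's own strand, build GRCm38.p6, from up to 250 bases before the start site and without bases that GENCODE annotates as exon. Capitals mark GAGGAA or its reverse complement TTCCTC, the purine-rich core bound by PU.1, the transcription factor that directs macrophage identity.
C1qb (chr4:136886201-136886450, minus strand): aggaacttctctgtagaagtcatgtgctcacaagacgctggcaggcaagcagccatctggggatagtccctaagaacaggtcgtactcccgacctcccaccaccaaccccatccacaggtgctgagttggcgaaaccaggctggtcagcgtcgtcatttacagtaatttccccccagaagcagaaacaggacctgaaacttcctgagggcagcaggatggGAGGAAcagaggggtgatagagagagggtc
C1qc (chr4:136893066-136893164, minus strand): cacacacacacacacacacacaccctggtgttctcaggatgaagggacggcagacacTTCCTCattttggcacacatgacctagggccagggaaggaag
Lgals3 (chr14:47373610-47373812, plus strand): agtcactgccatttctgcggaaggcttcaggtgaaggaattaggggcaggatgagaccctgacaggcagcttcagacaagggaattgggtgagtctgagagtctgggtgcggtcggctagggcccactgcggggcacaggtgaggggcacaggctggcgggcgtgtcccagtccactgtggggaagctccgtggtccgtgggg
Cd163 (chr6:124304429-124304650, plus strand): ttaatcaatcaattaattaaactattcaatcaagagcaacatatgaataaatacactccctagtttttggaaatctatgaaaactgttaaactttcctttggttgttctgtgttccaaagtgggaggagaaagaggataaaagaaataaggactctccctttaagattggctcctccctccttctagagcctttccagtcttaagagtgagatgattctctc

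In the 250 bases before the start site, GAGGAA on either strand was found in 4 of the 6 genes (C1qb, C1qc, Mrc1 and Cd68) and in 23.3% of 32851 promoters of the same length. The AP-1 motif TGANTCA was found in 1 of the 6, Cd68, and in 6.75% of all promoters. TGCTGA, a half-site of Maf factors, was found in C1qb alone of the 6 and in 16.1% of all promoters, and TATAAA in 0 of the 6 and in 12.4%. The 4 motifs were searched on both strands; none contains another, but the end of TGCTGA can be the start of TGANTCA. The windows of Lgals3 and Cd163 held none of the 4, which says only that these letters are not there.

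Csf1r and Emr1, which mark macrophages most broadly, were not higher in the mutants. Csf1r encodes the receptor for the growth factors CSF1 and IL-34 (chromosome 18, 61265226 to 61290793), and had 614 and 488 reads in the mutants, against 862 and 449 in the wild types. Its scaled level was 28.7 and 24.7 CPM in the mutants, against 38.4 and 22.6 CPM in the wild types, so that both mutants lay between the wild types. The log2 fold change was -0.19 ± 0.29 (edgeR adjusted p = 0.843), and it passed only without wild type 2 (-0.53, adjusted p = 0.0295), a fit that called 22.0% of all rows, while without wild type 1 it was 0.24.

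Emr1 encodes F4/80, the surface antigen used most often to identify mouse macrophages (chromosome 17, 57498114 to 57622950). It had 158 and 106 reads in the mutants, against 207 and 153 in the wild types. At 7.37 and 5.38 CPM in the mutants, against 9.22 and 7.70 CPM in the wild types, it was the only member with both mutants below both wild types, a pattern shown by 22.4% of all tested rows. The log2 fold change was -0.41 ± 0.28 (edgeR adjusted p = 0.645), and its direction held in all 12 alternatives, from -0.68 to -0.16. As the groups did not overlap, leaving out a library could hardly turn it.

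The scavenger and endocytic receptors gave a mixed picture, with Cd163 higher in both mutants and Mrc1 and Cd68 not separated. Cd163, which takes up haemoglobin bound to haptoglobin and marks tissue-resident macrophages (chromosome 6, 124254674 to 124280545), was read 194 and 159 times in the mutants, against 106 and 115 in the wild types. That was 9.05 and 8.06 CPM in the mutants, against 4.72 and 5.79 CPM in the wild types, with no overlap and with group means of 8.56 ± 0.700 CPM and 5.25 ± 0.754 CPM in the same order. Without TMM scaling the gap was narrower. The authors' deposited ratios over wild types 1 and 2 were 1.69 and 1.41 for mutant 1, and 1.26 and 1.05 for mutant 3. Those of mutant 3 were below the 1.34 of mutant 1 over mutant 3. The log2 ratios within the groups were 0.17 (mutant 1 over mutant 3) and -0.29 (wild type 1 over wild type 2) after TMM scaling. The gap between the groups on that scale, a log2 fold change of 0.70 ± 0.27, exceeded both. Its unadjusted p was 0.0322 and its edgeR adjusted p 0.409, and it passed only without wild type 2 (0.85, adjusted p = 0.0190), where 22.0% of rows did.

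Mrc1, the mannose receptor CD206 (chromosome 2, 14151041 to 14253416), had 18.2 and 13.3 CPM in the mutants, against 12.6 and 16.5 CPM in the wild types. Mutant 1 was high and the others overlapped, for a log2 fold change of 0.12 ± 0.26 (edgeR adjusted p = 0.894). Cd68, a glycoprotein of late endosomes and lysosomes (chromosome 11, 69477873 to 69479564), had 10.4 and 7.45 CPM in the mutants, against 9.22 and 7.09 CPM in the wild types. Each group of Cd68 values repeated nearly the same pair, with a log2 fold change of 0.13 ± 0.29 (edgeR adjusted p = 0.902).

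Cd14, the lipid-anchored co-receptor that hands bacterial lipopolysaccharide to TLR4 (chromosome 18, 36884721 to 36886308), was the lowest member per base of transcript in the mutants. It had 67 and 43 reads in the mutants, against 77 and 26 in the wild types, or 3.13 and 2.18 CPM in the mutants, against 3.43 and 1.31 CPM in the wild types. The wild types enclosed the mutants, and the log2 ratio of wild type 1 over wild type 2 was 1.39, the widest of any member within a group. The log2 fold change between the groups was 0.16 ± 0.49 (edgeR adjusted p = 0.932), 1.02 without wild type 1 and -0.37 without wild type 2.

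Lgals3 showed the largest difference of the set. It encodes galectin-3, a galactoside-binding lectin that activated macrophages secrete and that is measured clinically as a marker of heart failure and fibrosis (chromosome 14, 47993593 to 48005835). Reads of Lgals3 numbered 153 and 86 in the mutants, against 43 and 22 in the wild types. Scaled levels were 7.14 and 4.36 CPM in the mutants, against 1.91 and 1.11 CPM in the wild types, and the lower mutant was well above the higher wild type.

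The mean level of Lgals3 was 5.75 ± 1.96 CPM in the mutants, against 1.51 ± 0.571 CPM in the wild types (SD, n = 2 each), 3.81 times as high in the mutants. Summed over libraries, the ratio of reads was 3.78 with a 95% counting interval of 2.86 to 5.06. The log2 fold change of 1.92 ± 0.41 exceeded the log2 ratios within the groups, 0.71 between the mutants and 0.79 between the wild types. Its unadjusted p of 0.00163 ranked 153 of 16128 rows, and its edgeR adjusted p was 0.170. DESeq2 gave an adjusted p of 0.0335. Over 12 alternatives Lgals3 was higher in the mutants in all and called in 5. Its log2 fold change ran from 1.56 (without mutant 1, where it was not called) to 2.38 (without wild type 1). With all 4 libraries kept, adjusted p ran from 0.00489 (edgeR, 1 read in any library as the filter) to 0.209 (limma-voom). Of the fits that called Lgals3, those without wild type 1 and without wild type 2 called 12.2% and 22.0% of all rows. The fit without mutant 3, which called Lgals3, called 0.653% of all rows, that without mutant 1 called 0.381% and that with 1 read in any library as the filter called 1.44%. The authors' deposited ratios are of CPM without TMM scaling. For Lgals3 they were 3.29 (mutant 1 over wild type 1) and 5.82 (mutant 1 over wild type 2). For mutant 3 they were 1.68 over wild type 1 and 2.98 over wild type 2. Within the groups the deposited ratios were 1.95 (mutant 1 over mutant 3) and 1.77 (wild type 1 over wild type 2). Both exceeded the 1.68 of mutant 3 over wild type 1.

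**Figure D2:**
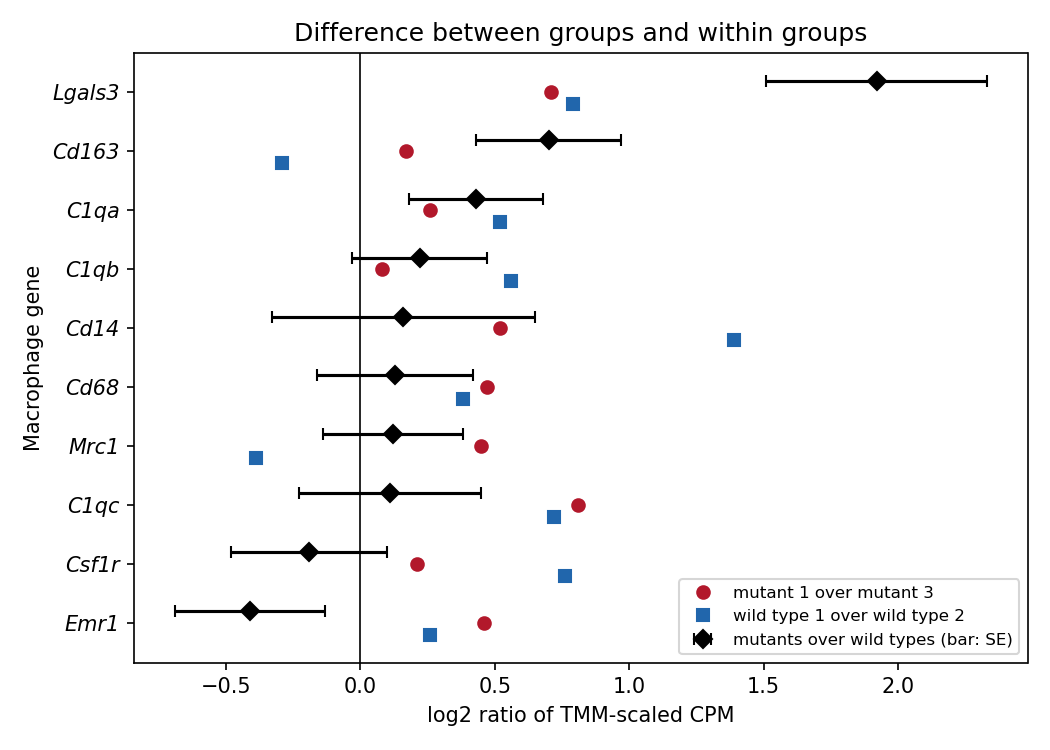
Log2 ratios of TMM-scaled CPM for each macrophage gene: diamonds give the mutants over the wild types with the SE of the edgeR fit, circles mutant 1 over mutant 3 and squares wild type 1 over wild type 2. Only for Lgals3 (1.92) and Cd163 (0.70) is the diamond farther from 0 than both within-group ratios.

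Across the 10 members, 3 had both mutants above both wild types after TMM scaling (Lgals3, Cd163 and C1qa), a pattern shown by 22.3% of all tested rows. For C1qa this did not hold without that scaling. The reverse was seen in 1 member. In the authors' deposited table, which compares single libraries by a test that the sources used here do not name, a p under 0.001 was given to 8 of the 10 members for mutant 1 against mutant 3 and to 25.6% of all rows with a ratio. For wild type 1 against wild type 2 the same table gave it to 5 members and to 41.3% of rows. Mutant 1 reached it in 4 members against wild type 1 (43.4% of rows) and in 5 against wild type 2 (34.2% of rows). Of these, 2 of the 4 and all 5 had a ratio above 1, so were higher in mutant 1. Mutant 3 reached it in 7 members against wild type 1 (51.8% of rows) and in 4 against wild type 2 (44.5% of rows). Of these, 0 of the 7 and 1 of the 4 had a ratio above 1, so most were lower in mutant 3. These comparisons share libraries, and each rests on 1 heart against another.

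Set against the C1q sum of the same library, a ratio that needs no scaling between libraries, Lgals3 again separated the groups. Per 100 C1q reads there were 4.14 and 3.32 Lgals3 reads in the mutants, against 1.23 and 1.08 in the wild types. Csf1r had 16.6 and 18.9 reads per 100 C1q reads in the mutants, against 24.6 and 22.1 in the wild types, and Emr1 had 4.27 and 4.10 in the mutants, against 5.91 and 7.53 in the wild types. Both were lower in each mutant than in each wild type on this measure. In CPM this held for Emr1 but not for Csf1r, at 28.7 and 24.7 CPM in the mutants, against 38.4 and 22.6 CPM in the wild types. The separation of Csf1r thus depended on the C1q reads it was divided by, and each C1q chain had a higher mean CPM in the mutants. The share of all rows that separate on this ratio was not computed. The ratios of Cd163, Mrc1, Cd68 and Cd14 overlapped between the groups, with Cd163 at 5.25 and 6.14 in the mutants, against 3.02 and 5.66 in the wild types. No test was run on these ratios.

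**Figure D3:**
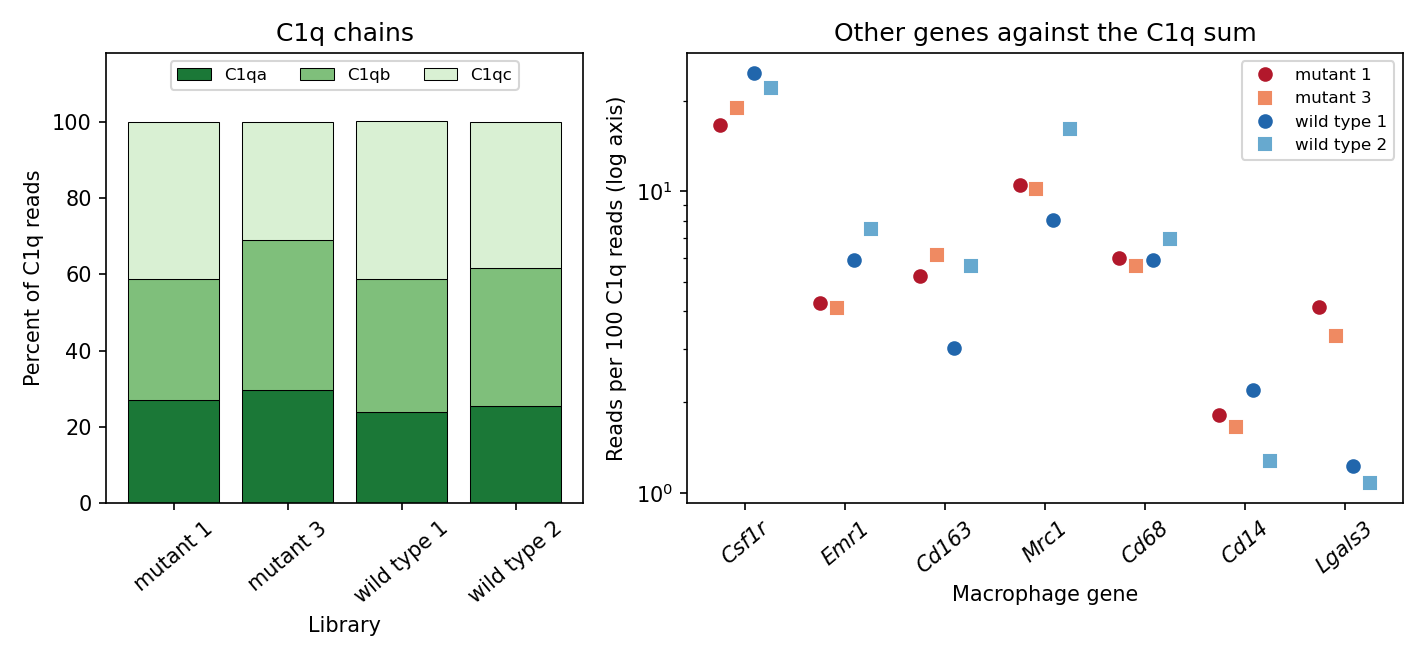
Left, the percent of all C1q reads that fell on each C1q chain in each library; right, reads of the other macrophage genes per 100 C1q reads on a log axis, each point 1 library. C1qc takes 31.0% in mutant 3 and 38.4% to 41.3% in the other libraries, and Lgals3 lies at 3.32 to 4.14 in the mutants, against 1.08 to 1.23 in the wild types.

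Levels per kilobase of exon put the C1q chains, Cd68 and Csf1r highest in both genotypes. The C1q chains came at the top, with means of 48.9 ± 1.96 (C1qb), 46.5 ± 17.9 (C1qc) and 41.2 ± 5.32 (C1qa) CPM per kilobase in the mutants, against 41.8 ± 11.3, 43.1 ± 14.8 and 30.6 ± 7.67 for the same chains in the wild types (SD, n = 2 each). In the wild types these chains overlapped each other. In the mutants C1qc overlapped both other chains, but C1qb (50.3 and 47.5 in mutants 1 and 3) lay above C1qa (44.9 and 37.4). The chains stood clear of every other member in both groups. Cd68 (7.09 ± 1.63 in the mutants, 6.49 ± 1.19 in the wild types) and Csf1r (5.47 ± 0.565 and 6.24 ± 2.29 in the same order) came next. Below them, Mrc1 stood at 2.93 ± 0.640 in the mutants, against 2.70 ± 0.512 in the wild types, Emr1 at 1.97 ± 0.436 and 2.61 ± 0.332, Cd163 at 1.91 ± 0.156 and 1.17 ± 0.168, and Cd14 at 1.62 ± 0.408 and 1.44 ± 0.914. Lgals3 ranked 6 of 10 in the mutants (3.62 ± 1.24) and 10 of 10 in the wild types (0.951 ± 0.360). Among neighbours below Csf1r, the mutants overlapped for Lgals3 with Mrc1 and for Emr1, Cd163 and Cd14, and the wild types overlapped for Mrc1 with Emr1 and for Cd14, Cd163 and Lgals3.

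Other macrophage genes were tested beside the members. Of 46 listed genes 42 were tested, and 0 were called by edgeR or by DESeq2. At an unadjusted p under 0.05 there were 4 higher and 0 lower, against 6.49% and 4.38% of all tested rows. The median log2 fold change was 0.23 (-0.05 with total counts only, when 18 of the 42 were above 0), and 15 had both mutants above both wild types and 4 the reverse, patterns shown by 22.3% and 22.4% of all tested rows. That median was 0.02 without mutant 1, with 21 of the 42 above 0, 0.35 without mutant 3, 0.43 without wild type 1 and 0.09 without wild type 2. The 4 genes with the smallest p were higher in the mutants under all 12 alternatives as well. They were picked by p in these same data, and each had both mutants above both wild types. Leaving out a library could thus hardly turn them, and this is no separate support. Ctss, the cathepsin S of antigen-presenting cells, had 20.3 and 12.3 CPM in the mutants, against 7.21 and 7.60 CPM in the wild types (edgeR adjusted p = 0.244).

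Ms4a7, a tetraspan gene of tissue macrophages, had 4.67 and 4.01 CPM in the mutants, against 1.47 and 2.06 CPM in the wild types (edgeR adjusted p = 0.253). Lst1, a leukocyte transcript, had 3.78 and 4.21 CPM in the mutants, against 1.07 and 1.86 CPM in the wild types (adjusted p = 0.254). Gpnmb, a glycoprotein of lipid-laden and phagocytic macrophages, had 3.64 and 1.62 CPM in the mutants, against 1.16 and 0.704 CPM in the wild types (adjusted p = 0.369). None of these passed over all rows.

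Genes that divide macrophages by origin, named after their values were seen, shared no common direction. Timd4 of long-lived resident cells had 45 and 17 reads in the mutants, against 60 and 30 in the wild types, and Lyve1, another resident marker that lymphatic endothelium shares, had 232 and 173 in the mutants, against 161 and 135 in the wild types. Ccr2, the chemokine receptor of monocyte-derived cells, had 19 and 19 reads in the mutants, against 5 and 21 in the wild types. Cx3cr1, the fractalkine receptor, had 50 and 69 in the mutants, against 105 and 95 in the wild types. The edgeR adjusted p was 0.490 or higher for all 4.

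**Figure D4:**
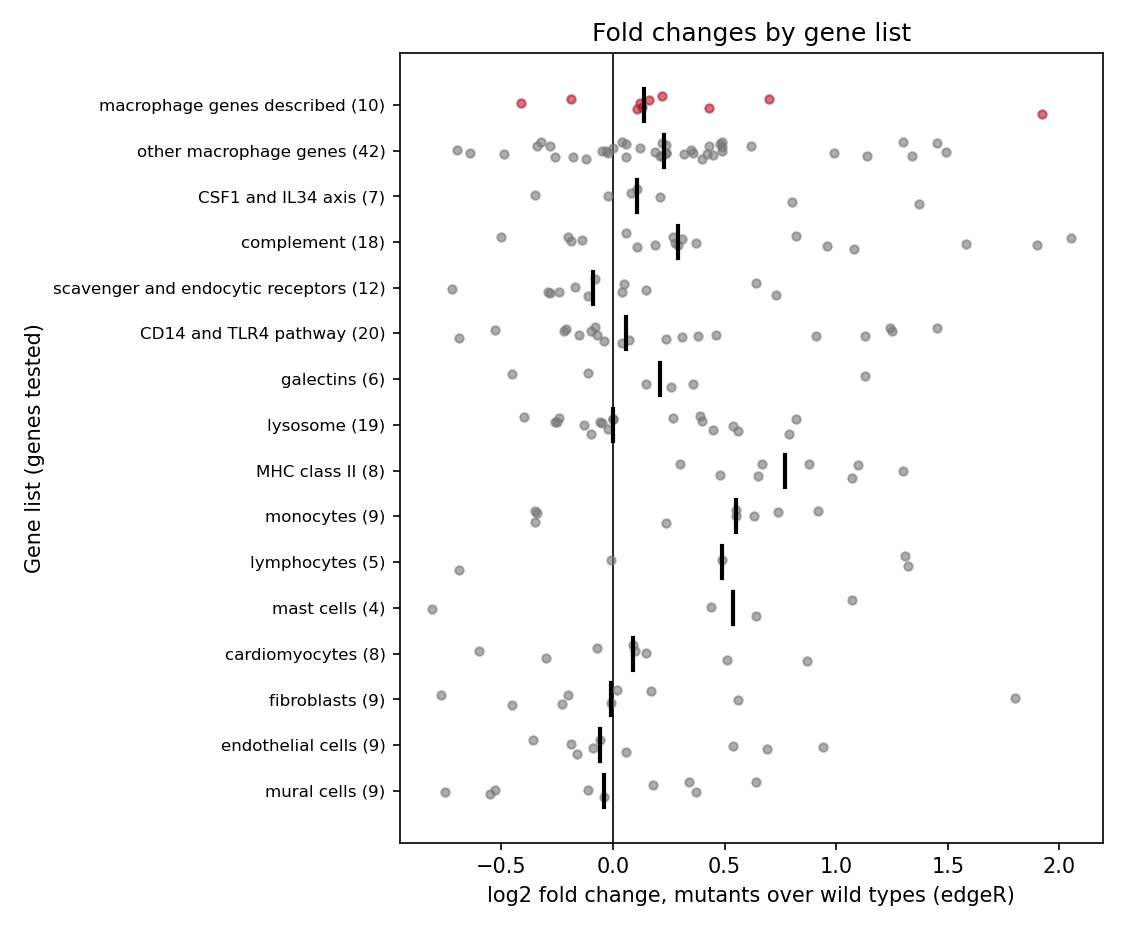
Log2 fold change of every tested gene, mutants over wild types, for the gene lists with at least 4 tested genes; dots are genes, black bars list medians, and the vertical placement within a list has no meaning. The 10 macrophage genes have a median of 0.14 (-0.13 with total counts only), and the class II antigen presentation genes lie at 0.30 or above (-0.19 or above without wild type 2).

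Genes that act with the members were examined by pathway, and edgeR called none of those listed. The growth factor gene Csf1, the ligand of the Csf1r receptor, had 30.0 and 42.0 CPM in the mutants, against 45.6 and 46.2 CPM in the wild types, a log2 fold change of -0.35 ± 0.24 (edgeR adjusted p = 0.630). Of 7 tested genes of the CSF1 and IL-34 axis, 1 was higher at an unadjusted p under 0.05 and 0 were lower. These shares were 6.49% and 4.38% over all tested rows. The higher gene was Csf3r, the neutrophil growth factor receptor, with 33 and 21 reads in the mutants, against 9 and 12 in the wild types. Spi1, which encodes PU.1 and is named Sfpi1 in the table, had 5.27 and 3.30 CPM in the mutants, against 4.90 and 2.52 CPM in the wild types, again high in mutant 1 and wild type 1.

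Complement genes downstream of C1q included 2 that DESeq2 called. Of 18 tested, an unadjusted p under 0.05 was found for 5 higher and 0 lower genes, beside 6.49% and 4.38% of all tested rows. EdgeR called 0, and the median log2 fold change was 0.29 (0.00 with total counts only). C4a had 8.26 and 5.12 CPM in the mutants, against 1.96 and 1.26 CPM in the wild types (log2 fold change 2.05 ± 0.38, edgeR adjusted p = 0.136). C4b, whose product is cleaved by the protease bound to C1q, had 20.3 and 9.63 CPM in the mutants, against 5.21 and 2.82 CPM in the wild types (1.90 ± 0.43, adjusted p = 0.196). DESeq2 gave these genes adjusted p-values of 0.00801 and 0.00471. C4a and C4b are near-identical copies, so reads may be split or shared between them and they are not independent.

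C3, the component on which the complement pathways meet, had 62.8 and 43.2 CPM in the mutants, against 30.8 and 29.4 CPM in the wild types (edgeR adjusted p = 0.304). Serping1, the inhibitor of the C1 proteases, had 98.3 and 85.7 CPM in the mutants, against 60.1 and 34.7 CPM in the wild types (adjusted p = 0.304). These 4 genes are named for their small p. Over the 18 tested, 9 had both mutants above both wild types and 1 the reverse, beside 22.3% and 22.4% of all tested rows.

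Among the galectins, Lgals1, a relative of Lgals3 made by many stromal cells, had 671 and 514 CPM in the mutants, against 322 and 221 CPM in the wild types. Its log2 fold change was 1.13 ± 0.28 (edgeR adjusted p = 0.225, DESeq2 adjusted p = 0.00929). It was the only one of 6 tested galectin genes, Lgals3 not counted, with an unadjusted p under 0.05, as 10.9% of all tested rows had. Lgals4 had 14.7 and 16.8 CPM in the mutants, against 11.3 and 31.7 CPM in the wild types, and Lgals3bp had 36.3 and 45.2 CPM in the mutants, against 41.0 and 26.9 CPM in the wild types, with groups that overlapped in both.

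Genes that act with Cd14 in sensing lipopolysaccharide gave mixed values. Tlr4, the receptor that Cd14 serves, had 194 and 134 reads in the mutants, against 36 and 84 in the wild types, which gave a fold change of 1.45 ± 0.45 on the log2 scale (edgeR adjusted p = 0.320). Lbp, the carrier that brings lipopolysaccharide to Cd14, had 6.53 and 7.61 CPM in the mutants, against 3.34 and 3.12 CPM in the wild types (1.13 ± 0.28, adjusted p = 0.230). Ly96, which encodes the TLR4 co-receptor MD-2 and was named after its values were seen, had 15 and 21 reads in the mutants, against 14 and 21 in the wild types, and the groups overlapped (0.07 ± 0.57, adjusted p = 0.974). Of 20 tested genes of this pathway, an unadjusted p under 0.05 was found for 3, all higher (Lbp, Tlr4 and Tnfaip3), and the median was 0.06. Of 12 tested scavenger and endocytic receptors 1 was higher (Colec12, adjusted p = 0.443) and the median was -0.09. Of 19 tested lysosomal genes 2 were higher (Npc2 and Ctsk, adjusted p = 0.291 and 0.331) and the median was 0.00. At that unadjusted p, 6.49% of all tested rows were higher and 4.38% lower.

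Class II antigen presentation genes had a log2 fold change above 0 in all 8 tested, with a median of 0.77, though without wild type 2 this held for 6 of the 8 (median 0.60). At an unadjusted p under 0.05, 4 were higher and 0 lower, against 6.49% and 4.38% of all tested rows. EdgeR called 0 and DESeq2 called 1. Cd74, the invariant chain, had 73.3 and 74.1 CPM in the mutants, against 42.2 and 17.6 CPM in the wild types (log2 fold change 1.30 ± 0.38, edgeR adjusted p = 0.288, DESeq2 adjusted p = 0.0346). H2-Eb1 had 21.2 and 18.6 CPM in the mutants, against 10.6 and 8.40 CPM in the wild types (adjusted p = 0.175), and H2-Aa had 35.1 and 30.8 CPM in the mutants, against 19.9 and 10.9 CPM in the wild types (adjusted p = 0.279). H2 genes share sequence and vary between strains, and the animals had a mixed background.

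Markers of other leukocytes had few reads. Over 11 neutrophil genes found in the table, reads summed to 60 and 122 in the mutants, against 47 and 14 in the wild types, and S100a9 alone was tested, with 46 and 68 reads in the mutants, against 23 and 12 in the wild types (edgeR adjusted p = 0.263). Over 13 lymphocyte genes the sums were 105 and 221 in the mutants, against 165 and 62 in the wild types. Over 7 mast cell genes they were 153 and 243 in the mutants, against 254 and 182 in the wild types. Kit gave 89 and 76 of these in the mutants, against 157 and 141 in the wild types. Its log2 fold change was -0.81, while those of the other tested genes, Mcpt4, Tpsb2 and Cma1, were 1.07, 0.64 and 0.44. Ms4a2, a defining mast cell gene, had no read in any library. Dendritic cell genes other than Zbtb46 and Irf8, 9 of 11, were too low to test.

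Of the 9 fibroblast markers edgeR called 0, and 4 had a log2 fold change above 0 and 5 below. Postn, a matrix gene of activated fibroblasts, had 1727 and 1263 reads in the mutants, against 319 and 544 in the wild types, for a fold change of 1.80 on the log2 scale (edgeR adjusted p = 0.125, DESeq2 adjusted p = 5.9e-05), while Col3a1 had 2942 and 3949 in the mutants, against 7342 and 4933 in the wild types (-0.77, edgeR adjusted p = 0.367, DESeq2 adjusted p = 0.235). The 9 fibroblast markers summed to 977 and 1120 CPM in the mutants, against 1150 and 956 CPM in the wild types, and their median log2 fold change was -0.01. The 9 endothelial markers had a median log2 fold change of -0.06, with 5 below 0. At an unadjusted p under 0.05 by edgeR, 3 of them were higher (Egfl7, Fabp4 and Emcn) and 0 lower. The 9 endothelial markers summed to 879 and 1150 CPM in the mutants, against 799 and 868 CPM in the wild types. Of this, Fabp4 alone gave 322 and 461 CPM in the mutants, against 133 and 274 CPM in the wild types. The 12 monocyte genes summed to 253 and 279 CPM in the mutants, against 234 and 209 CPM in the wild types. Ly6c1 alone gave 71.2 and 83.4 CPM in the mutants, against 54.6 and 45.1 CPM in the wild types. Of the 9 tested, 6 had a log2 fold change above 0 and 3 below. At an unadjusted p under 0.05, 3 were higher (Ly6c1, Ly6c2 and Ace) and 0 lower, against 6.49% and 4.38% of all tested rows. The reads of Ccr2, given above, overlapped between the groups. The part of these cells in the Lgals3 and Cd163 values was not tested.

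The rows whose level over the 4 libraries was most like the mean pattern of the 10 members were in none of the macrophage lists. They were Srxn1, Lrrc10, Ssu72, Mapkapk5 and Pdpn, at root mean square distances of 0.0294, 0.0328, 0.0414, 0.0452 and 0.0472 on the log2 CPM scale, from 8466 rows compared. Lrrc10, a gene of cardiac muscle cells, had 107 and 82.7 CPM in the mutants, against 84.0 and 64.6 CPM in the wild types. Of the members, C1qa (0.0789) and Cd68 (0.113) lay nearest the mean pattern and Lgals3 (0.782) farthest. With 4 libraries, 36 of the compared rows were nearer to it than any member was.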

How the data were processed

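RNA of 4 right ventricles was sequenced. Per the submitters' processing notes, TopHat 1.2.0, Cufflinks and the mouse build mm9 were used; the sources used here give no counting rule, strand or row filter (not stated). The deposited table holds whole-number read counts per gene row, which the authors did not normalise. It also holds the authors' normalised value, equal to CPM. For each library pair a ratio and a p-value were deposited by the authors. Starts are printed counted from 1.

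The test was edgeR 4.0.16's quasi-likelihood fit (R 4.3.3) to the counts of all 4 libraries, without covariates, after filterByExpr (16128 rows; all 10 members passed) and TMM. It was two-sided, with p adjusted by Benjamini-Hochberg over those rows. The script was tested on simulated data. SE came from the F statistic. Alternatives were DESeq2 1.42.0, limma-voom 3.58.1, other scalings, filters, thresholds and row sets, and leaving out each library. Exon lengths are from GENCODE M21 (GRCm38). The labels do not say that hearts were separate litters or batches, so p-values measure the spread between these samples. Members and lists were chosen with earlier results of these data known. Of each other list, called genes or otherwise up to 4 of smallest p could be named, for cell type lists also the 2 of highest level, and the 5 autosomal rows of at least 5 CPM most like the members; others are marked or are check genes (Ddx3y, Ezh2, Tnnt3 and unread markers).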

Additional observations from a re-analysis of the deposited data

How the results depend on the processing

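Read counts of a member ran from 22 to 1524 a library, so counting error limits Cd14 and Lgals3 most, and 2 hearts a group limit all. No paired analysis was possible because the groups share only 1 replicate number. The count of rows called, 21, was 203 by DESeq2, 156 with total counts only, 317 with 1 read in any library as the filter, 6 with 10 reads in every library, 3 without X, Y, mitochondrial and abundant rows (above 1% of a library), 69 at an adjusted p under 0.1, and 63 to 3675 with a library left out. Of the members, 0 were called, 1 (Lgals3) by DESeq2 and 1 (Lgals3) with 1 read in any library, and 0 to 3 with a library left out: Lgals3 without mutant 3, C1qa, C1qb and Lgals3 without wild type 1, and Csf1r, Cd163 and Lgals3 without wild type 2. The members' median of 0.14 ran from -0.08 (without mutant 1) to 0.52 (without wild type 1) and was -0.04 without wild type 2. Such fits take the spread of the lone library from the other genotype.

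Lgals3, Cd163, C1qa and Emr1 kept their direction in all 12 alternatives. These are the members whose groups did not overlap after TMM scaling. Leaving out a library could hardly turn them, so this restates the lack of overlap. With total counts only, the median of all rows was -0.28 and 76 rows were called higher and 80 lower, against 17 and 4; log2 fold changes turned to -0.06 (C1qb), -0.15 (C1qc), -0.14 (Mrc1), -0.14 (Cd68) and -0.11 (Cd14), each above that median. Without mutant 1 they were -0.31 (C1qc), -0.09 (Mrc1), -0.09 (Cd68) and -0.07 (Cd14). Without wild type 1 they were 0.24 (Csf1r) and -0.06 (Mrc1). Without wild type 2 they were -0.03 (C1qb), -0.21 (C1qc), -0.05 (Cd68) and -0.37 (Cd14). Over the fits with a library left out, the highest values were 0.53 (C1qb), 0.51 (C1qc), 0.36 (Mrc1), 0.39 (Cd68) and 1.02 (Cd14), and the lowest for Csf1r was -0.53. The cause of these changes was not tested.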
